A study of Mus musculus with 36 samples.

Results

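AMPA receptors are the glutamate-gated cation channels that carry most fast excitatory transmission in the brain. The Gria genes encode the pore-forming subunits, and each channel is a tetramer of their products. The transmembrane AMPA receptor regulatory proteins (TARPs, here Cacng2, Cacng3 and Cacng8) and the cornichons (Cnih2 and Cnih3) bind to the channel and modify its trafficking and gating. In the hippocampus the number and the composition of these channels at synapses are known to be adjusted during synaptic plasticity. The 9 genes just named were followed here at every probe that the platform annotation assigns to their symbols, each probe kept separate, which gave 19 of the 46632 probes on the array and 9 of the 17711 annotated genes. The pore-forming subunits had 13 of these probes (4 for Gria1, 2 for Gria2, 4 for Gria3 and 3 for Gria4), the TARPs 4 (2 for Cacng2, 1 each for Cacng3 and Cacng8) and the cornichons 1 each. All probes of a gene were kept whatever their values.

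RNA of the whole hippocampus of male mice was hybridised to Illumina MouseWG-6 BeadChips in 2 experiments. Braf-cko mice (5 animals, 4 months) were homozygous for a floxed Braf allele and carried a heterozygous CamkIIa-Cre transgene, whose CamkIIa promoter drives recombination after birth in principal neurons of the forebrain, while the other cells of the tissue keep the gene. Their littermates, Braf-flox (6 animals, 4 months), carried the floxed alleles without Cre. Both groups had the same mixed background, mostly C57BL/6J with a smaller share of FVB. CamkII-Cre mice (6 animals, 6 months, C57BL/6J) carried the heterozygous transgene without the floxed alleles and were set against their wildtype littermates, CamkII-wt (6 animals, 6 months, C57BL/6J), to measure the effect of Cre itself. The 2 experiments differ in age and background and appear to have been normalized apart, and levels are not set against each other across them. In RNA of a whole tissue, fewer cells of a type and less RNA per cell cannot be told apart.

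There were 36 arrays for 23 animals, since every CamkII-Cre and CamkII-wt animal and Braf-cko replicate 1 had 2 arrays. These were averaged, so that an animal counts once. Median intensity was 52.3 to 53.3 on Braf-cko arrays, 51.8 to 53.2 on Braf-flox arrays, 65.0 to 69.1 on CamkII-Cre arrays and 65.0 to 70.2 on CamkII-wt arrays. The Braf probe gave 5.37 to 5.66 in Braf-cko mice and 5.45 to 5.76 in Braf-flox mice on the log2 scale, at the level of the array median (5.70 to 5.74), and gives no check of the deletion. Levels below are log2 of the normalized intensity, and changes are differences of group means on that scale. A probe was tested with limma where its mean lay in the upper 50% of all probes, and p-values were adjusted over the 23316 probes tested by the Benjamini-Hochberg method, with a threshold of 0.05. These p-values set a difference of group means against the spread between animals of a group, which includes the spread between arrays.

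Among the 9 genes, only Gria3 had a probe called between Braf-cko and Braf-flox mice. Of the 17 probes tested, which covered all 9 genes, 1 was called lower in Braf-cko mice and 0 higher, against 0.373% of all probes tested called lower and 0.159% called higher. The called probe was ILMN_2638066 of Gria3, which was not the brightest of its 4 probes. At the brightest probe of each gene, as the other lists are read below, 0 of the 9 genes were called. The lowest limma adjusted p was then 0.20 and the median change -0.03. At an unadjusted p under 0.05, 5 of the 17 probes were lower and 0 higher, where 5.41% of all probes were lower and 5.37% higher. These 5 were the 4 Gria3 probes and the Cnih2 probe. The median change over the 17 probes was -0.07, beside 0.00 over all probes tested, and 11 of the 17 lay below 0, where 49% of all probes did. Gria3 counts 4 times among these 17, and the genes were chosen with earlier results of these data known. The other 16 probes tested were not shown to differ, and their 95% intervals are given below because a p above the threshold does not show equal levels.

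**Figure D1:**
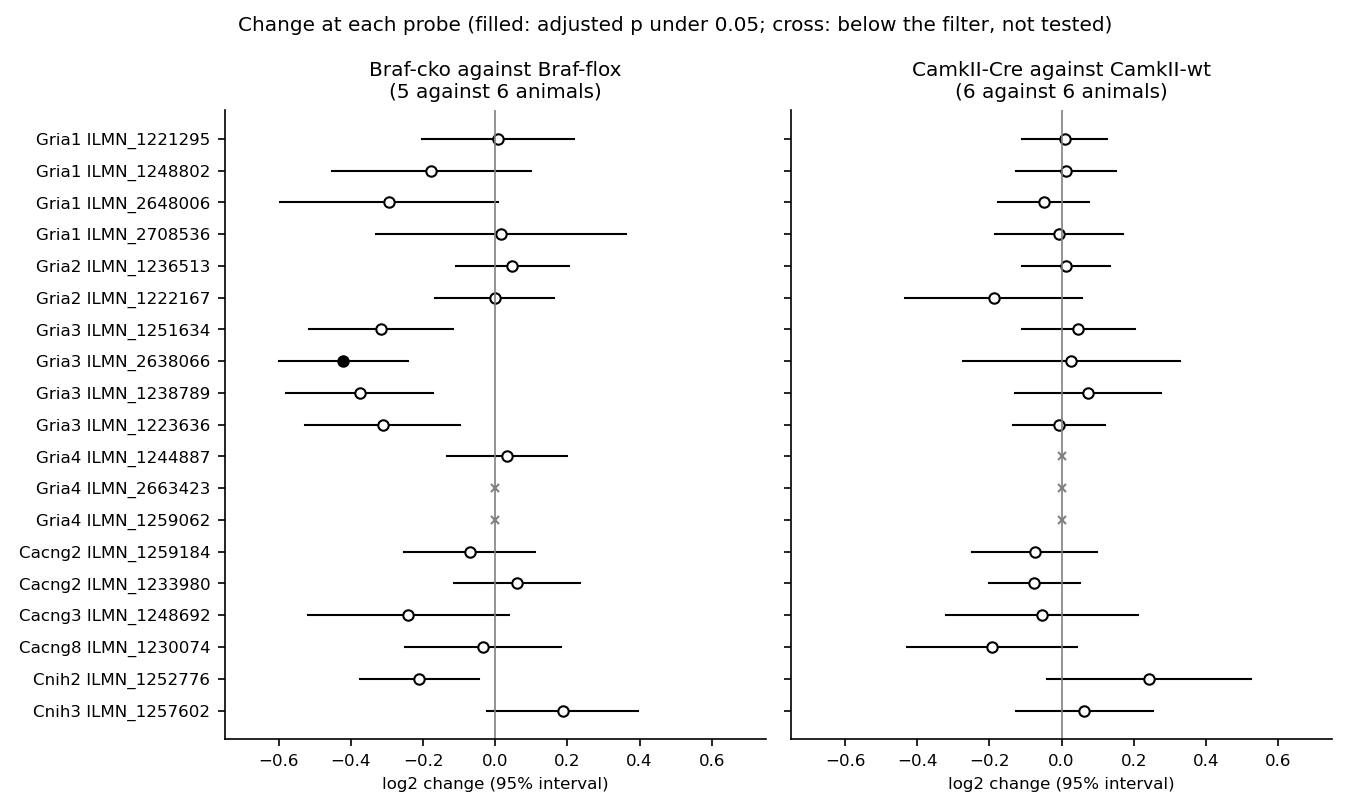
Difference of group means on the log2 scale (x axis, with 95% intervals) at each of the 19 probes (y axis), for Braf-cko against Braf-flox (left, 5 against 6 animals) and CamkII-Cre against CamkII-wt (right, 6 against 6 animals). Filled circles passed an adjusted p of 0.05, open circles did not, and crosses mark probes below the brightness filter. The 4 Gria3 probes lie between -0.42 and -0.31 on the left and between -0.01 and 0.07 on the right.

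Gria3 encodes the GluA3 subunit, which in hippocampal principal neurons is found mainly in channels with GluA2. At ILMN_2638066 the Braf-cko mice gave 8.66, 8.78, 8.87, 8.51 and 8.58, and the Braf-flox mice 8.96 at the lowest, 9.09 at the median and 9.28 at the highest. Each of the 5 Braf-cko mice lay below each of the 6 Braf-flox mice, with replicate 3 nearest to the controls and replicate 4 farthest from them. The means were 8.68 ± 0.15 in Braf-cko mice (SD, n = 5) and 9.10 ± 0.12 in Braf-flox mice (SD, n = 6). The change was -0.42 (SE 0.08, 95% interval -0.60 to -0.24, limma adjusted p = 0.036), or 74.7% of the Braf-flox level. The exact permutation test of this difference gave p = 0.0022 (two-sided, 462 regroupings), the smallest p that 5 against 6 animals allow. The paper also lists Gria3 as lower on these arrays. Its quantitative PCR (qPCR) gave the same direction, with a smaller fall than on the arrays.

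The call stood close to the threshold. It was kept in 3 of the 11 fits that left out an animal (without Braf-cko replicate 2 or 3, or Braf-flox replicate 6) and lost in the other 8, with adjusted p between 0.033 and 0.10. The change itself stayed between -0.47 and -0.38 in these 11 fits. Without Braf-cko replicate 4, the lowest animal, it was -0.38. The call was also lost with the replicate number as a block (adjusted p = 0.067), with all 4 groups in 1 limma fit (0.11) and with the equal-variance test of each probe by itself, without limma's moderated variance (0.12). The block fit also leaves out Braf-flox replicate 6, which has no Braf-cko mouse of the same number.

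**Figure D2:**
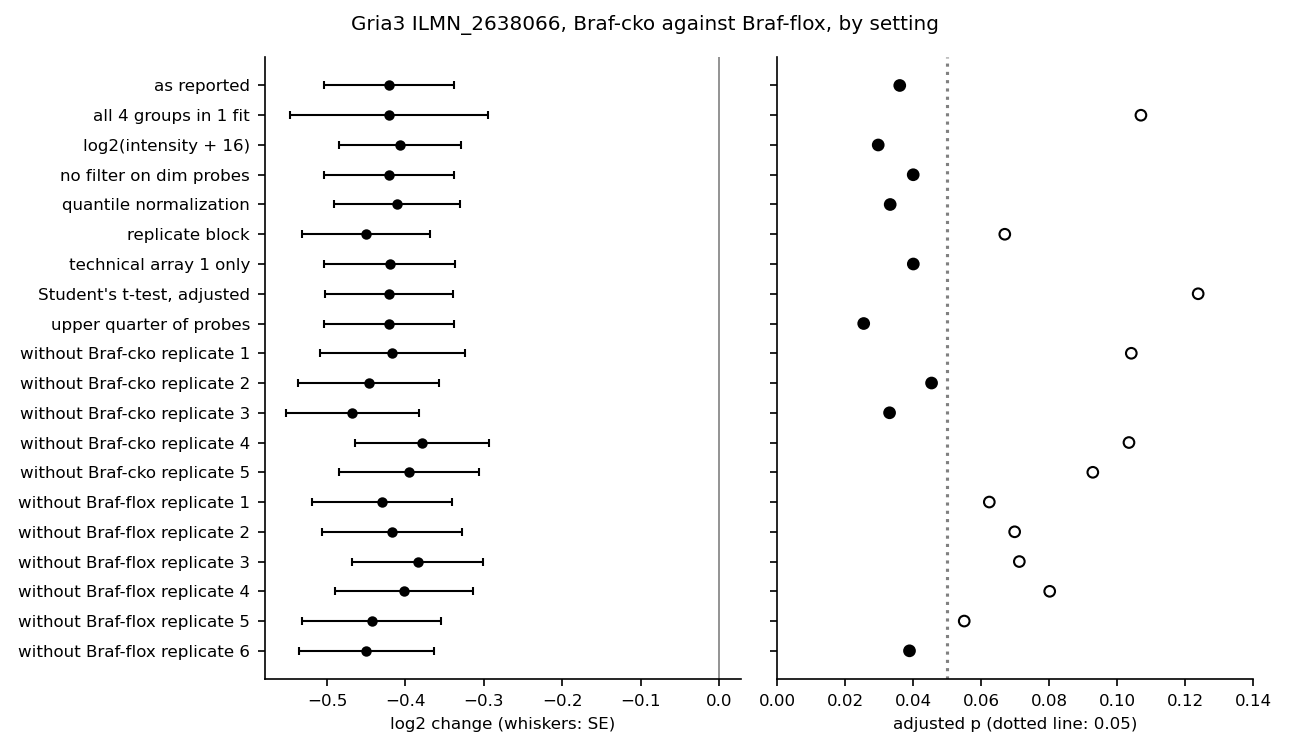
Change of Gria3 at ILMN_2638066 in Braf-cko against Braf-flox (left, log2 difference with its SE) and its adjusted p (right), as reported and under each alternative (y axis). Filled circles are under 0.05. The change lies between -0.47 and -0.38 in every row, while the adjusted p runs between 0.025 and 0.12.

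The other 3 Gria3 probes were lower by a like amount and did not pass the adjusted threshold. At ILMN_1251634 the Braf-cko mice gave 9.86, 9.85, 9.91, 9.34 and 9.68, and the Braf-flox mice 9.98 at the lowest, 10.03 at the median and 10.12 at the highest. The groups did not overlap, and the Braf-flox mice lay close together (SD 0.05) while Braf-cko replicate 4 stood well below the other Braf-cko mice. The change was -0.32 (SE 0.09, 95% interval -0.52 to -0.12, limma adjusted p = 0.20, exact permutation p = 0.0022, two-sided), and -0.22 without Braf-cko replicate 4.

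At ILMN_1238789 the Braf-cko mice gave 7.89, 7.99, 8.01, 7.84 and 7.92, and the Braf-flox mice 8.06 at the lowest, 8.31 at the median and 8.58 at the highest. The groups did not overlap, and here the Braf-cko mice were the closer together, with an SD of 0.07 against 0.21 in Braf-flox mice. The change was -0.38 (SE 0.10, 95% interval -0.58 to -0.17, limma adjusted p = 0.12, exact permutation p = 0.0087, two-sided).

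At ILMN_1223636 the Braf-cko mice gave 6.24, 6.43, 6.10, 6.27 and 6.19, and the Braf-flox mice 6.24 at the lowest, 6.61 at the median and 6.77 at the highest. The groups overlapped, since Braf-flox replicates 3 and 6 lay among or below the higher Braf-cko mice. The change was -0.31 (SE 0.10, 95% interval -0.53 to -0.10, limma adjusted p = 0.24, exact permutation p = 0.028, two-sided). All 3 probes of the 17 whose groups did not overlap belonged to Gria3, and 1.03% of all probes tested had all Braf-cko mice below all Braf-flox mice (0.691% had them above). The 4 probes read 1 gene and are not independent of each other.

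**Figure D3:**
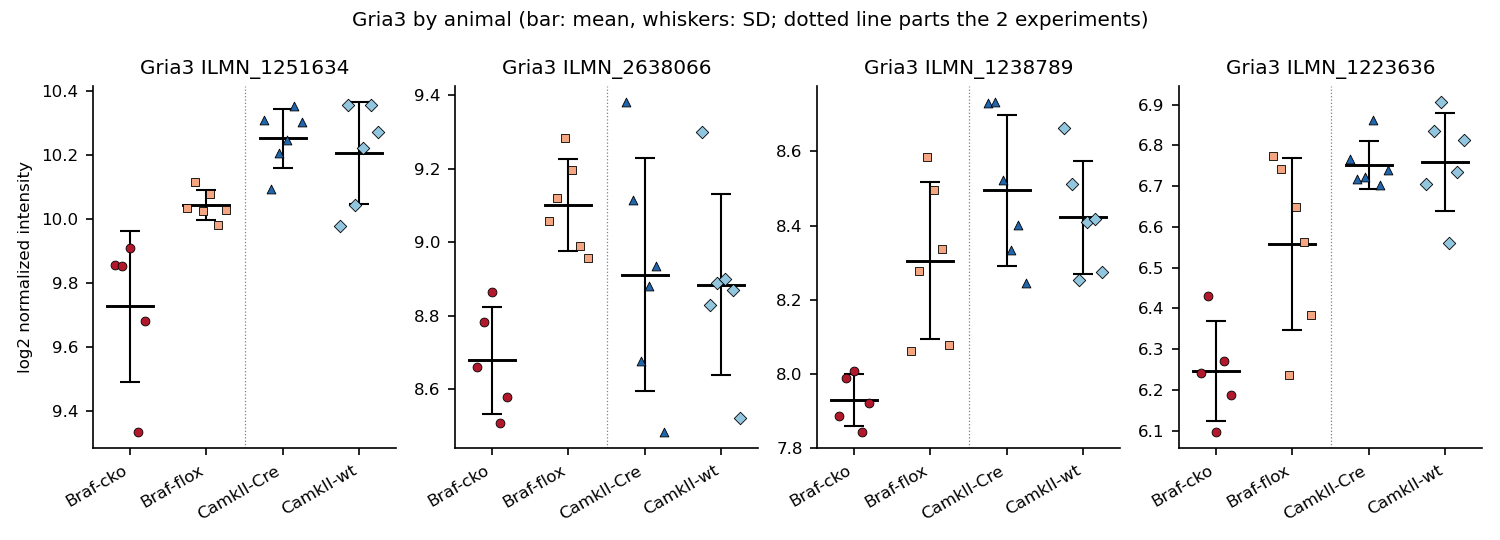
Log2 normalized intensity of the 4 Gria3 probes (1 panel each) in every animal of the 4 groups, with the mean (bar) and SD (whiskers). The Braf-cko mice lie below all Braf-flox mice in the first 3 panels and overlap them in the fourth. The CamkII-Cre and CamkII-wt mice overlap in all 4 panels.

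Set against the Braf-flox mean of each probe, all 5 Braf-cko mice were lower at all 4 Gria3 probes. Averaged over the 4 probes, the deviation was -0.34, -0.24, -0.28, -0.51 and -0.41 in Braf-cko replicates 1 to 5. Among Braf-flox mice it ran between -0.14 and 0.10, and 1 of the 6, replicate 6, was below the mean at all 4 probes. The second array of Braf-cko replicate 1 gave 8.66 at ILMN_2638066 and its first 8.67, so that this animal's position did not rest on 1 hybridisation.

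Values of cell type markers also differed between these groups. Over all probes tested, 5.41% were lower and 5.37% higher at an unadjusted p under 0.05, and 0.159% were called higher. At 1.03% all Braf-cko mice lay below all Braf-flox mice. The summed intensity of the 8 interneuron markers was 12372 to 13366 in Braf-cko mice and 13960 to 17959 in Braf-flox mice, without overlap. Of the 7 of them tested 0 passed the adjusted threshold, while Slc32a1, Pvalb and Gad1 were lower at an unadjusted p under 0.05 (-0.17, -0.48 and -0.19). Reln gave -0.13, Gad2 -0.04, Dlx1 0.06 and Lhx6 0.13, with a median of -0.13 over the 7. Of the 8, 1 lay below the array median. The 6 principal neuron markers on the array summed to 12635 to 15672 in Braf-cko mice and 11208 to 13367 in Braf-flox mice, which overlap, as did the sums of the other 6 cell types. Of the 5 tested, Neurod2, a transcription factor of these neurons, rose in Braf-cko mice (0.47, limma adjusted p = 0.025). Slc17a7 was higher at an unadjusted p under 0.05 and not after adjustment (0.34, limma adjusted p = 0.32). Prox1 gave -0.15 and Camk2a -0.10, and the median over the 5 was 0.09. Among the other types the astrocyte markers Aqp4 and Gjb6 (-0.26 and -0.27) and the endothelial marker Flt1 (-0.27) were lower at an unadjusted p under 0.05 and not after adjustment (limma adjusted p = 0.23, 0.25 and 0.22). Of the other astrocyte markers Gfap gave 0.17 and Slc1a3 -0.04, and the median over the 5 tested was -0.04. Over the 4 endothelial markers tested the median was -0.05 and the highest 0.01. Of the 4 oligodendrocyte precursor markers tested, 1 was also lower at an unadjusted p under 0.05, with a median of -0.17 over the 4. The part of any of these in the Gria3 values was not tested.

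Cre alone gave no such difference at Gria3. At ILMN_2638066 the CamkII-Cre mice gave 8.48 at the lowest, 8.91 at the median and 9.38 at the highest, and the CamkII-wt mice 8.52, 8.88 and 9.30. The groups overlapped over nearly their whole range. The change was 0.03 (95% interval -0.27 to 0.33, limma adjusted p = 1.00), and at the other Gria3 probes it was 0.05, 0.07 and -0.01, with intervals that together reached -0.13 and 0.27.

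Over the 16 probes tested in this experiment 0 were called, and 0 had an unadjusted p under 0.05 by limma or by the unmoderated test of each probe, where 0.00858% and 1.63% of all probes did by limma. All CamkII-Cre mice lay below or above all CamkII-wt mice at 0 of the 16, and at 0.0386% and 0.0429% of all probes tested. The 3 Gria4 probes lay below the filter. The 16 changes ran between -0.19 and 0.24, with a median of 0.00, as over all probes tested.

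Whether the Braf-cko difference was larger than the CamkII-Cre difference was asked in 1 fit over the 4 groups, by subtracting the second from the first. The result was -0.45 (95% interval -0.81 to -0.09) at ILMN_2638066, -0.36 (-0.61 to -0.12) at ILMN_1251634, -0.45 (-0.73 to -0.16) at ILMN_1238789 and -0.31 (-0.55 to -0.07) at ILMN_1223636. The limma adjusted p-values were 0.58, 0.43, 0.35 and 0.56, so that a difference between the experiments was not shown for Gria3 after adjustment. With the replicate number as a block the value at ILMN_2638066 was -0.48 and its adjusted p 0.085, still above the threshold. Of the 16 probes tested 0 were called, where 0.184% of all probes were (0.146% lower, 0.0386% higher). At an unadjusted p under 0.05, 5 were lower and 0 higher, the 4 Gria3 probes and Cnih2, where 3.3% of all probes were lower and 3.37% higher.

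The repeat arrays show how far the spread at Gria3 ILMN_2638066 in the CamkII experiment lay between animals. With the mean of each set of arrays removed, ILMN_2638066 had an SD of 0.06 between the 2 arrays of an animal and of 0.28 between animals of a group, against medians of 0.11 and 0.12 over all probes tested. CamkII-Cre replicate 1 gave 9.38 on both arrays and CamkII-Cre replicate 6 gave 8.48 and 8.49. CamkII-wt replicate 1 gave 9.22 and 9.37, and CamkII-wt replicate 6 gave 8.42 and 8.62. High and low animals thus stood in both groups and kept their places on the second array. At this probe the highest animal in both groups was replicate 1 and the lowest replicate 6, so that the spread followed the replicate number there. At ILMN_1251634 CamkII-wt replicate 1 was the lowest of its group (9.98), with replicate 6 at 10.27. The SDs between arrays and between animals were 0.05 and 0.13 at ILMN_1251634, 0.12 and 0.18 at ILMN_1238789 and 0.14 and 0.09 at ILMN_1223636. The last probe thus varied more between arrays than between animals. Cacng3 (0.06 between arrays, 0.25 between animals) and Cnih2 (0.10 and 0.26) varied more between animals than between arrays.

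Some probes shifted as a whole between the first and the second arrays, by -1.28 at Gria3 ILMN_1251634, -1.16 at Gria2 ILMN_1222167 and -1.02 at Cacng2 ILMN_1233980. Each group had both sets in full. Within the first set alone the CamkII-Cre change at these probes was 0.06, -0.24 and -0.11, and within the second 0.03, -0.14 and -0.04.

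**Figure D4:**
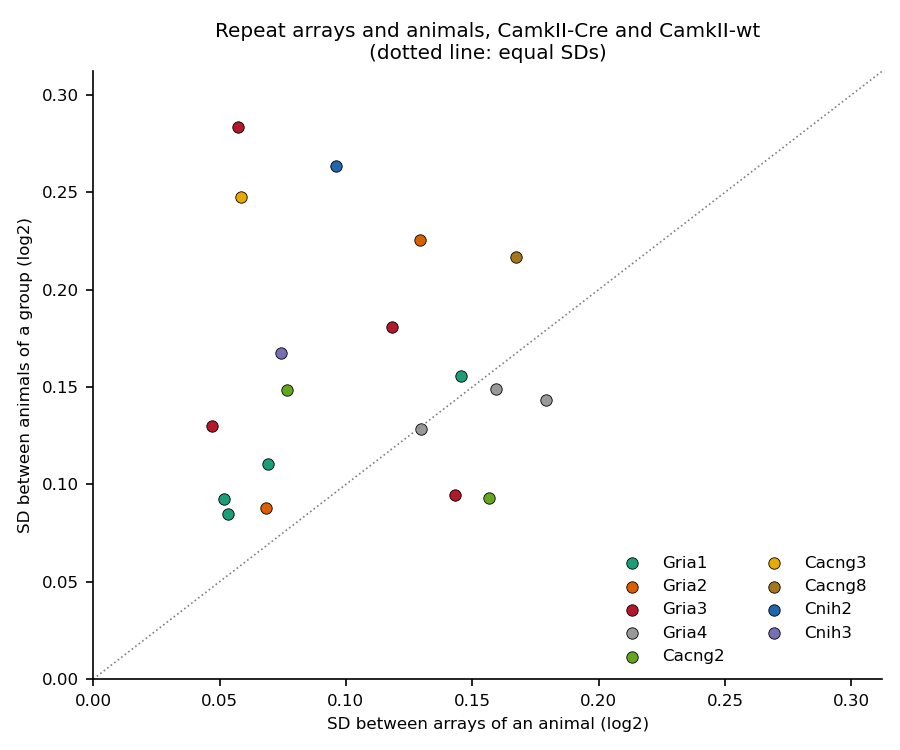
SD between animals of a group (y axis, log2) against SD between the 2 arrays of an animal (x axis, log2) for the 19 probes in the CamkII-Cre and CamkII-wt mice, after the mean of each set of arrays was removed. Points above the dotted line varied more between animals than between arrays. The highest point is Gria3 ILMN_2638066, at 0.06 and 0.28.

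Gria1 encodes GluA1, the subunit known for activity-dependent insertion at hippocampal synapses. Its probes did not give 1 answer. At ILMN_1221295 the Braf-cko mice gave 13.48, 13.40, 13.25, 13.36 and 13.28, and the Braf-flox mice 13.03 at the lowest, 13.38 at the median and 13.58 at the highest. The Braf-cko mice lay inside the range of the controls, and the change was 0.01 (95% interval -0.20 to 0.22, limma adjusted p = 0.99).

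At ILMN_2648006 the Braf-cko mice gave 11.42, 11.23, 11.07, 11.06 and 11.36, and the Braf-flox mice 11.16 at the lowest, 11.51 at the median and 11.88 at the highest. Braf-flox replicates 3, 4 and 5 stood at 11.76 and above, while replicates 1, 2 and 6 lay at 11.16 to 11.25, among the Braf-cko mice. The change was -0.30 (SE 0.14, 95% interval -0.60 to 0.01, limma adjusted p = 0.48, exact permutation p = 0.12, two-sided). At ILMN_1248802 it was -0.18 (-0.45 to 0.10), and at ILMN_2708536, near the array median, 0.02 (-0.33 to 0.36). In CamkII-Cre mice the changes of the 4 Gria1 probes lay between -0.05 and 0.01, with intervals within -0.19 and 0.17.

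Gria2 encodes GluA2, whose edited form makes the channel nearly impermeable to calcium. At ILMN_1236513 the Braf-cko mice gave 13.27, 13.41, 13.42, 13.30 and 13.21, and the Braf-flox mice 13.12 at the lowest, 13.27 at the median and 13.47 at the highest. The groups overlapped fully. The change was 0.05 (95% interval -0.11 to 0.20, limma adjusted p = 0.89), and at ILMN_1222167 it was 0.00 (-0.17 to 0.16). In CamkII-Cre mice they were 0.01 (-0.11 to 0.13) and -0.19 (-0.43 to 0.06).

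Gria4 encodes GluA4, which in the mature hippocampus is found mainly in interneurons. All of its 3 probes lay near or below the array median. The single one tested, ILMN_1244887, gave 5.59 to 5.94 in Braf-cko mice and 5.60 to 5.85 in Braf-flox mice, with a change of 0.03 (95% interval -0.13 to 0.20, limma adjusted p = 0.93). The other 2, below the filter, gave differences of 0.02 and -0.02 (exact permutation p = 0.81 and 0.78, two-sided). At these intensities a change of the Gria4 transcript may go unseen.

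**Figure D5:**
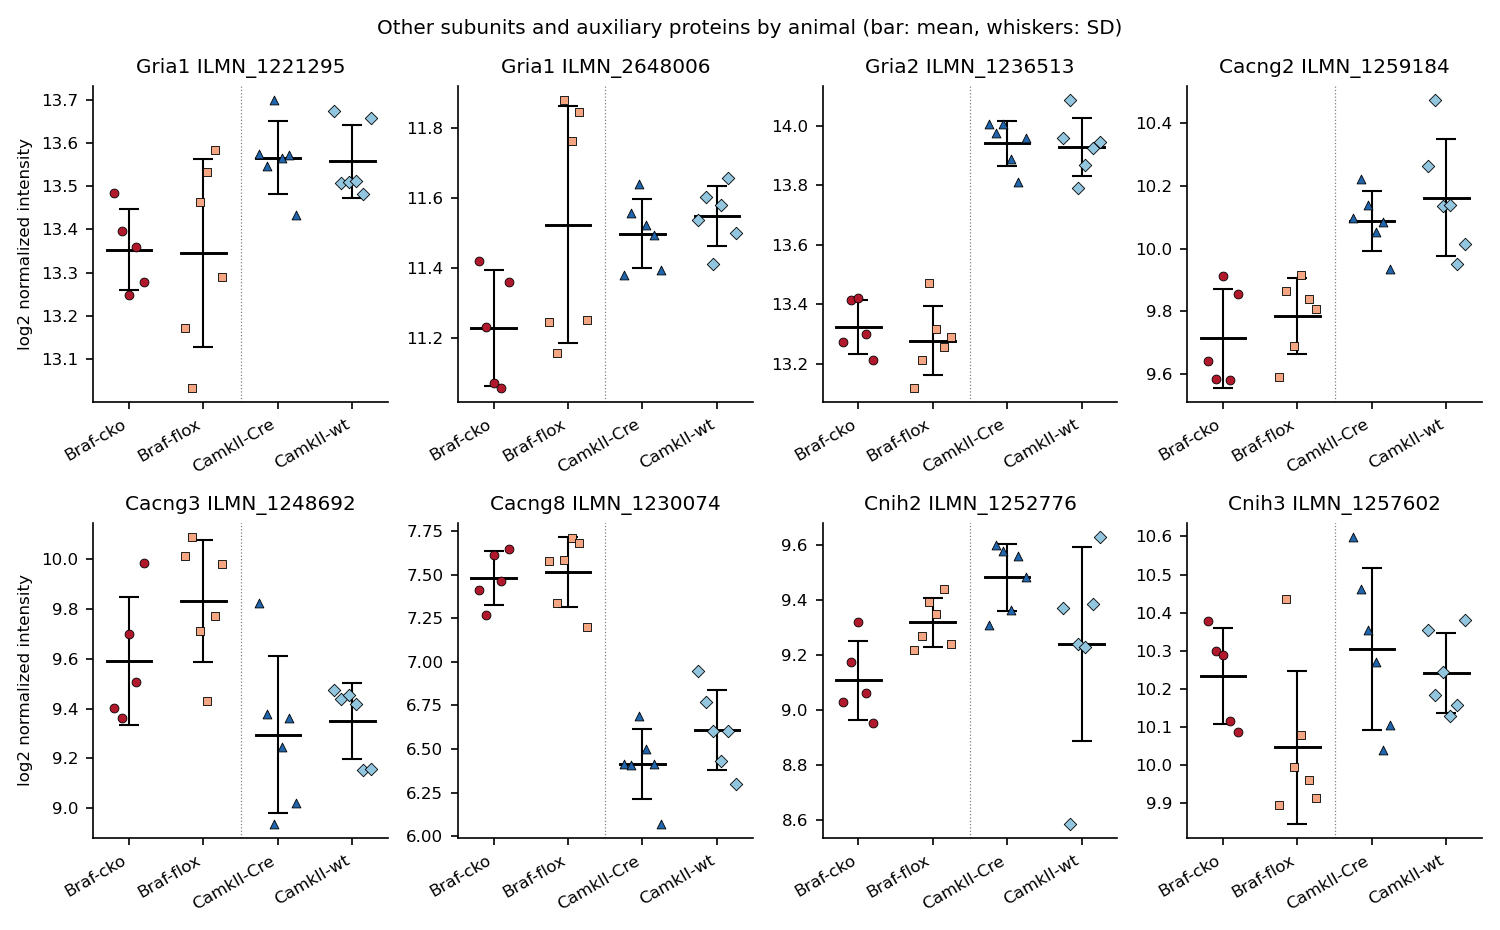
Log2 normalized intensity of 8 probes of the other subunits and auxiliary proteins (1 panel each) in every animal of the 4 groups, with the mean (bar) and SD (whiskers). Braf-cko and Braf-flox mice overlap in every panel, and so do CamkII-Cre and CamkII-wt mice. The 3 highest Braf-flox mice at Gria1 ILMN_2648006 stand apart from the other 3.

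Among the TARPs no probe was called. Cacng2 encodes stargazin, which tethers the receptor to the postsynaptic scaffold. At ILMN_1259184 the Braf-cko mice gave 9.64, 9.58, 9.91, 9.58 and 9.86, and the Braf-flox mice 9.59 at the lowest, 9.82 at the median and 9.92 at the highest. The ranges nearly coincided, and the change was -0.07 (95% interval -0.25 to 0.11, limma adjusted p = 0.84). Its other probe gave 0.06 (-0.12 to 0.24).

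Cacng3 encodes the TARP gamma-3. The Braf-cko mice gave 9.40, 9.36, 9.70, 9.51 and 9.98, and the Braf-flox mice 9.43 at the lowest, 9.88 at the median and 10.09 at the highest. Braf-cko replicate 5 lay near the top of the controls and 4 of the 5 Braf-cko mice below the Braf-flox mean. The change was -0.24 (SE 0.13, 95% interval -0.52 to 0.04, limma adjusted p = 0.55, exact permutation p = 0.13, two-sided).

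Cacng8 encodes gamma-8, the TARP most enriched in the hippocampus. The Braf-cko mice gave 7.41, 7.27, 7.61, 7.46 and 7.65, and the Braf-flox mice 7.20 at the lowest, 7.58 at the median and 7.71 at the highest. The Braf-cko mice lay inside the control range, with a change of -0.03 (95% interval -0.25 to 0.18, limma adjusted p = 0.95). In CamkII-Cre mice it was -0.19 (-0.43 to 0.04), with 5 of 6 animals below the CamkII-wt mean, and -0.09 and -0.30 within the first and the second set of arrays.

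The cornichons went in opposite directions in Braf-cko mice, neither past the adjusted threshold. Cnih2 encodes cornichon-2, which slows the closing of hippocampal AMPA receptors. The Braf-cko mice gave 9.03, 9.18, 9.32, 9.06 and 8.95, and the Braf-flox mice 9.22 at the lowest, 9.31 at the median and 9.44 at the highest. Of the Braf-cko mice 4 lay below every Braf-flox mouse, and replicate 3 lay among them. The change was -0.21 (SE 0.08, 95% interval -0.38 to -0.05, limma adjusted p = 0.32, exact permutation p = 0.022, two-sided). The 2 arrays of Braf-cko replicate 1 differed at this probe by 0.23, more than the change itself.

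In the CamkII experiment the Cnih2 probe gave 9.31 at the lowest, 9.52 at the median and 9.60 at the highest in CamkII-Cre mice, and 8.58, 9.30 and 9.63 in CamkII-wt mice. All 6 CamkII-Cre mice lay above the CamkII-wt mean, and CamkII-wt replicate 2 stood far below the other CamkII-wt mice. The change was 0.24 (SE 0.13, 95% interval -0.04 to 0.52, limma adjusted p = 1.00), and 0.11 without that animal. Subtracting the CamkII-Cre change from the Braf-cko change gave -0.45 (-0.79 to -0.12, limma adjusted p = 0.49).

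Cnih3 encodes cornichon-3. The Braf-cko mice gave 10.38, 10.30, 10.29, 10.12 and 10.09, and the Braf-flox mice 9.90 at the lowest, 9.98 at the median and 10.44 at the highest. All 5 Braf-cko mice lay above the Braf-flox mean, yet Braf-flox replicate 2 was above every Braf-cko mouse. The change was 0.19 (SE 0.10, 95% interval -0.02 to 0.40, limma adjusted p = 0.53, exact permutation p = 0.10, two-sided), and 0.06 (-0.13 to 0.25) in CamkII-Cre mice.

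Promoter sequences of 7 of the 9 genes were looked at because the study asked which genes ERK signaling reaches through the transcription factors CREB1 and ELK1. These were Gria2, Gria4, Cacng2, Cacng3, Cacng8, Cnih2 and Cnih3, each with 250 bases before and 50 from the annotated start (RefSeq, GRCm38.p6). Gria1 and Gria3 had no entry in the promoter set used and were not looked at, so these counts say nothing of them. For Gria3 the paper itself predicts a conserved CREB1 site. It searched longer promoter windows and did not match fixed letters, so its result and these counts are not alike. On both strands 0 of the 7 held the cAMP response element TGACGTCA, found in 1.79% of the 32851 promoters of this length. Its 5-letter core TGACG, contained in the full element, was in 0 of the 7 and in 20.8% of all, and the ETS site CCGGAAG in 0 of the 7 and in 8.86% of all. This says only that these letters are not in these windows. The promoter of Cnih2 is shown as that of the gene other than Gria3 with an unadjusted p under 0.05. It lies on the minus strand at chr19:5098472-5098771, and capitals mark the 50 bases from the annotated start.
Cnih2: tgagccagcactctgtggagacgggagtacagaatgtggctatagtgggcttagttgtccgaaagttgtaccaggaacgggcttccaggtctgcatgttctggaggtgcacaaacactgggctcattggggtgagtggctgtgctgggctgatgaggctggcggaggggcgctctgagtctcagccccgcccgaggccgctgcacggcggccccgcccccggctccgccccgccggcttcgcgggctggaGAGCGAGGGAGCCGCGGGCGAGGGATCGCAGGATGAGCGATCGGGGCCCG

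Proteins that assemble, anchor or modify the receptor were read at the brightest probe of each gene. Of 16 scaffolding, clustering and trafficking genes tested, 1 was called lower in Braf-cko mice and 0 higher. Of all probes tested, 0.373% were called lower and 0.159% higher. At an unadjusted p under 0.05, 7 of the 16 genes were lower and 1 higher, where 5.41% of all probes were lower and 5.37% higher. This list was chosen with earlier results of these data known, so that its excess over all probes is no independent result. The median change over the 16 was -0.17, beside 0.00 over all probes. The called gene was Nptx2, the neuronal pentraxin that clusters AMPA receptors from outside the cell. The Braf-cko mice gave 6.58, 6.91, 7.30, 6.39 and 6.66, and the Braf-flox mice 7.42 at the lowest, 7.82 at the median and 7.93 at the highest. The groups did not overlap, where 1.03% of all probes tested had all Braf-cko mice below all Braf-flox mice. Nptx2 fell to 49.9% of the Braf-flox level (limma adjusted p = 0.0044), and in CamkII-Cre mice the log2 change was -0.20. Arc, which promotes receptor endocytosis, gave -1.10 (SE 0.35, adjusted p = 0.24), a dimmer probe of the scaffold gene Homer1 -0.42 (0.072) and one of Dlg2, which encodes PSD-93, -0.27 (0.12). The brightest probe of Homer1 gave -0.25 (0.26), while the other 2 Dlg2 probes gave -0.06 at the brightest (0.93) and 0.05 (0.88). The paper lists Nptx2 and Homer1 as lower on these arrays, past its adjusted threshold. By qPCR it found a larger fall of Homer1 than on the arrays. Nptx1, the sister pentraxin of Nptx2, went the other way, at 0.43 (SE 0.14, adjusted p = 0.26), and is named here after its value was seen.

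Of 15 other auxiliary and assembly genes tested, 0 were called, with a median change of 0.03. Shisa7, an auxiliary protein of hippocampal synaptic receptors, came nearest. It gave 9.49, 9.59, 9.33, 9.50 and 9.17 in Braf-cko mice, and 9.56 at the lowest, 9.85 at the median and 10.05 at the highest in Braf-flox mice. Only Braf-cko replicate 2 reached the control range, and the change was -0.42 (SE 0.10, 95% interval -0.62 to -0.21, limma adjusted p = 0.086). Dimmer probes of Olfm1 and Gsg1l gave 0.24 (adjusted p = 0.25) and 0.22 (0.42), and their brightest 0.20 (0.30) and 0.16 (0.85).

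Of 13 kinases, phosphatases and editing enzymes acting on the receptor 0 were called (median -0.01). The smallest p-values were those of the phosphatase subunits Ppp1cc (-0.27, limma adjusted p = 0.19) and Ppp1ca (-0.16, 0.38) and of the kinase Prkcb (-0.25, 0.21). Of 4 kainate receptor genes tested 0 were called, with a median of 0.06, and the values nearest to the threshold were those of Grik5 (0.21 at a dimmer probe, adjusted p = 0.44, and 0.11 at the brightest, 0.72), Grik2 (0.17, 0.58) and Grik1 (-0.16, 0.58).

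With the group means removed, the genes whose level followed Gria3 ILMN_2638066 most closely over the 11 mice of the Braf experiment were Hpcal4 (Pearson r = 0.95), Tent4a (0.92), Hexa (0.92), Herc2 (0.91) and Dcc (0.91), the first 5 of 11392 genes ranked. Of these 0 were called between Braf-cko and Braf-flox mice. The 11 mice share their arrays' normalization, and with so many genes ranked high values arise readily, so that these names are given as a description.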

How the data were processed

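Total RNA of whole hippocampi was labelled and hybridised to Illumina MouseWG-6 v1.1 BeadChips by the authors, whose methods name beadarray, limma and vsn in R. The deposited value table holds normalized intensity per probe on a linear scale, and how the arrays were normalized is not given in the sources used here. A further table of intensities before normalization was not used here, including 72 columns that match no sample of the series. Probes were named through the platform annotation (29976 probes with 1 symbol, 10 with several and 16646 with none, which were not named).

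Values were log2-transformed and the arrays of an animal averaged. limma 3.58.1 (lmFit, eBayes; R 4.3.3) compared Braf-cko with Braf-flox and CamkII-Cre with CamkII-wt, each on its own animals, and the difference of both changes in a fit over 4 groups. The upper 50% of probes by mean were tested, with Benjamini-Hochberg adjustment over all of them. Single probes also had exact permutation tests (Python 3.11.15). The code was tested on simulated data. The number of arrays limits the precision.

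Every probe of the 9 genes is reported. From the other lists, each gene with a called probe and up to 3 more by smallest p are named, and the 5 genes most like the probe of smallest adjusted p. The genes and lists were chosen with earlier results of these data known. Alternatives were the filter, quantile normalization, an offset of 16, 1 array per animal, leaving out animals, a replicate block, a fit over all groups and Student's t-test.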

Additional observations from a re-analysis of the deposited data

Results flagged for a closer look

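Among the 76 sets of values looked at (19 probes in 4 groups), 3 held an animal far from the others of its group by Dixon's criterion at 95%, and chance gives about 1 in 20. At Cnih3, Braf-flox replicate 2 gave 10.44, where the next Braf-flox mouse gave 10.08 and the lowest 9.90. At Gria1 ILMN_2708536, CamkII-wt replicate 3 gave 5.92, where the next CamkII-wt mouse gave 6.24. At Gria4 ILMN_1259062, CamkII-Cre replicate 4 gave 5.95, where the next CamkII-Cre mouse gave 5.83. Both of these last values lay below the array medians of that experiment (6.02 to 6.13). The call at Gria3 rests on none of these values.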

How the results depend on the processing

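The count of 1 called probe in Braf-cko against Braf-flox stayed at 1 without the filter, with the upper 25% of probes, after quantile normalization, with an offset of 16 and with first arrays only. It was 0 with the replicate block, 0 with all 4 groups in 1 fit and 0 with the unmoderated Student's t-test of each probe, which the methods name for statistics in general and not for the arrays, after adjustment (5 probes at its unadjusted threshold, as with limma), and 0 to 1 when an animal was left out. The adjusted p of Gria3 ILMN_2638066 was 0.067 with the block, 0.11 with the 4 groups and 0.12 with the t-test. The SE was then 0.082, 0.126 and 0.081, beside 0.083 as reported. The change was -0.45, -0.42 and -0.42, beside -0.42 as reported. The cause of the lost call was not tested. The replicate numbers were not taken to pair the animals: the labels tie no number to a shared litter or day, and same-numbered Braf animals correlated at -0.14 to 0.13 (2 of 5 over 0.1) and CamkII animals at -0.24 to 0.59 (3 of 6 over 0.1), with 1 of 5 and 2 of 6 correlating best with their own number. With the block the SE of the CamkII-Cre change at Gria3 ILMN_2638066 was 0.06 instead of 0.14, and the adjusted p of the difference of changes there 0.085 instead of 0.58. Calls over all probes in the Braf experiment were 87 lower and 37 higher as reported, 46 and 12 with the block and 15 and 4 with the t-test. Every block fit that includes the Braf experiment also leaves out Braf-flox replicate 6, which has no Braf-cko mouse of the same number. The counts of 0 in the other comparisons stayed at 0 under every alternative run.

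No change of Gria3 or Cnih2 in Braf-cko mice turned its sign. Signs turned only at uncalled probes with changes of at most 0.06 in size. In Braf-cko mice Gria1 ILMN_1221295 was -0.0042 with the block and -0.0022 with first arrays, and Gria2 ILMN_1222167 0.010 after quantile normalization and 0.0086 with the block. In CamkII-Cre mice quantile normalization gave -0.0045 at Gria1 ILMN_1221295 and -0.0024 at Gria2 ILMN_1236513, second arrays -0.0049 at Gria1 ILMN_1248802 and first arrays 0.055 at Gria3 ILMN_1223636. In the difference of changes, quantile normalization gave 0.016 at Gria1 ILMN_1221295, and first arrays -0.030 at Gria1 ILMN_2708536 and -0.0097 at Cacng2 ILMN_1259184. Leaving out animals gave, in Braf-cko mice, -0.055 to 0.055 at Gria1 ILMN_1221295, -0.070 to 0.10 at Gria1 ILMN_2708536, -0.031 to 0.045 at Gria2 ILMN_1222167, -0.0098 to 0.077 at Gria4 ILMN_1244887, -0.0014 to 0.10 at Cacng2 ILMN_1233980 and -0.097 to 0.018 at Cacng8. In CamkII-Cre mice it gave -0.018 to 0.035 at Gria1 ILMN_1221295, -0.016 to 0.063 at Gria1 ILMN_1248802, -0.072 to 0.028 at Gria1 ILMN_2708536, -0.016 to 0.043 at Gria2 ILMN_1236513, -0.066 to 0.11 at Gria3 ILMN_2638066, -0.046 to 0.022 at Gria3 ILMN_1223636 and -0.16 to 0.017 at Cacng3. In the difference it gave -0.064 to 0.046 at Gria1 ILMN_1221295, -0.063 to 0.12 at Gria1 ILMN_2708536 and -0.058 to 0.047 at Cacng2 ILMN_1259184.

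The 3 Gria4 probes and Gria1 ILMN_2708536 lie near the array median or below it, where signal is hard to tell from background, and no statement on these transcripts rests on them.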
